A study of Mus musculus with 54 samples.

Results

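Kinesins are motor proteins that use ATP to move along microtubules or to take microtubule ends apart. In the male germ line they are known to separate chromosomes in the meiotic divisions, to carry cargo through the cell, and to build the manchette and the flagellum of the spermatid. CTCF is a zinc finger protein that organizes chromatin loops, and BORIS (the product of Ctcfl) is its testis-specific paralog. The kinesin family genes were taken as every gene symbol of the deposited count tables that is Kif followed by a number and at most 1 letter, or Kifc followed by a number. This rule found 41 of the 23284 genes in each of the 2 tables. They were placed by role into 13 spindle, chromosome and cytokinesis kinesins, 10 cilium and flagellum kinesins, 4 grouped as kinesin-13 and other microtubule end regulators, and 14 transport kinesins. The group of 4 held Kif2a, Kif2b, Kif26a and Kif26b. Its name is a label, and no action on microtubule ends is implied for Kif26a and Kif26b. The kinesin-13 genes Kif2c and Kif24 were placed with the spindle and the cilium genes.

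All mice were 3-month-old C57BL/6 males with germline alleles in every cell. WT males had both copies of Ctcf and of Boris, CTCF HET males lacked a copy of Ctcf (Ctcf+/-), BORIS KO males lacked both copies of Boris (Boris-/-), and the compound mutant, CM, combined both losses (Ctcf+/-, Boris-/-). RNA was sequenced from whole testis (3 libraries per genotype, each of germ cells pooled from 4 mice), and from purified round spermatids (RS) and spermatocytes (SC), with 3 libraries per genotype except 2 for WT SC. ChIP-seq peaks of CTCF, RNA polymerase II (Pol2) and H3K4me3 were listed for WT and CM germ cells, and those of BORIS for WT alone. Whole testis RNA was depleted of ribosomal RNA and read on another platform than the poly(A) RNA of RS and SC, so levels were compared only within a table.

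Total counts ran from 10437683 to 42055813 in whole testis, from 47740650 to 98545423 in RS and from 53337530 to 88946702 in SC. The kinesin genes took 0.337 to 0.508% of them in whole testis, 0.472 to 0.55% in RS and 0.323 to 0.415% in SC. Fewer genes had a count in the libraries labelled CTCF HET SC (12018 to 13406) and CM SC (14145 to 16666) than in WT SC (17631 and 17683), and fewer in CM RS (14932 to 16670) than in WT RS (17504 to 17985). The mean Ctcf level in whole testis was 42.7 ± 2.17 CPM (counts scaled to library size; SD, n = 3) in WT, 27.0 ± 3.75 in CTCF HET and 25.9 ± 1.35 in CM. In RS, however, the libraries labelled CM had 39.8 to 177 CPM of Ctcf against 29.6 to 49.6 in WT, and in SC those labelled CM (32.4 to 83.6 CPM) and CTCF HET (31.3 to 50.5) reached from about the WT level (32.0 and 33.8) to above it. Ctcfl was not at 0 in the libraries labelled BORIS KO, at 0.256 ± 0.127 CPM in whole testis and 2.27 ± 0.173 in RS, against 0.606 ± 0.101 and 3.80 ± 1.16 in WT. Genotypes in RS and SC are therefore the labelled ones throughout.

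Markers of the fractions were checked in WT. The summed level of 9 round spermatid markers was 1346 to 1485 CPM in RS and 39.2 CPM in both SC libraries, and that of 7 spermatocyte markers was 3502 and 4443 CPM in SC and 1216 to 1652 in RS. Markers of other cells also moved with genotype in whole testis. The 6 Leydig cell markers summed to between 1738 and 3438 CPM in CM, above every WT library (355 to 558 CPM). BORIS KO lay between them (653 to 1410 CPM), and CTCF HET (432 to 738 CPM) overlapped WT. Against WT, 4 of 6 Leydig, 3 of 6 Sertoli, 5 of 6 macrophage, 1 of 4 peritubular and vascular and 2 of 6 spermatogonial markers were higher in CM whole testis, and 1 of 7 spermatocyte and 4 of 9 round spermatid markers were lower. The summed macrophage level was nevertheless not above WT, at 422 to 576 CPM in CM and 489 to 652 in WT. All 3 erythroid markers were at 0 in CM, and none had enough counts to be tested. In the purified cells of WT the Leydig markers summed to 1.16 to 1.37 CPM in RS and to 9.19 and 9.76 in SC.

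CTCF and BORIS peaks at the kinesin starts are described first, because they set the regions against which the RNA can be read. A peak was counted when any base lay within 2 kb of an annotated transcript start (mm9, GENCODE vM1, to which all 41 genes matched). A BORIS peak was listed at 15 of the 41 kinesin genes (36.6%), against 15.5% of the 21684 genes matched. A CTCF peak was listed at 17 (41.5%, against 31.6%) in WT and at 11 (26.8%, against 13.7%) in CM. Of the 17 genes with a WT CTCF peak, 5 (29.4%) had no WT peak that overlapped a CM peak, against 57.4% of all genes with such a peak. Kif21b, Kif23, Kif26a, Kif26b and Kifc1 each kept 1 of 2 WT CTCF peaks and lost the other. The share of all genes that lost at least 1 peak was not counted. Pol2 peaks were listed at 25 kinesin genes in WT (61%, against 41.2%) and at 33 in CM (80.5%, against 48.4%), and H3K4me3 peaks at 33 (80.5%, against 54.2%) and 36 (87.8%, against 58.1%). The CTCF, BORIS and Pol2 lists each combine 2 replicates and the H3K4me3 lists hold 1 sample, so these shares have no replicate error and were not tested. The 21684 genes include genes with too few counts to test, whereas every kinesin gene but Kif12 was tested in whole testis. Of the 15604 matched genes tested in CM whole testis 3117 had a BORIS peak, against 15 of 40 kinesin genes. CTCF was listed with BORIS at 2531 and without it at 3519, against 10 and 7 kinesin genes. Pol2 and H3K4me3 shares of tested genes were not counted.

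BORIS was listed without CTCF at 5 kinesin genes: Kif13b, Kif17, Kif18a, Kif18b and Kif2c. Their summits are shown because 4 of these 5 genes were among those whose RNA fell in CM whole testis. Each run is 30 bases of the plus strand of mm9, and the capital marks the base of the summit.
Kif13b, chr14:65271229-65271258: cagagagcggcgcgcGaattttcccgccag
Kif17, chr4:137817842-137817871: ggggcagtgaagtccTtgtcactctcagac
Kif18a, chr2:109120894-109120923: tgcgagtcgctcaggAaaacgtctgacgtg
Kif18b, chr11:102786388-102786417: acacccgattccaccGaaccaaccttcttc
Kif2c, chr4:116855193-116855222: agtttaaatcccgcgCgccagcctccctac
The windows of Kif18a, Kif18b and Kif2c overlap an annotated exon, with the summit 14, 1 and 3 bp from the nearest start. The Kif13b window lies 195 bp upstream. That of Kif17 lies inside the gene and overlaps no exon, 290 bp upstream of an internal transcript start. Peak heights, whose normalization is not stated, were 166 for Kif13b, 162 for Kif2c, 60 for Kif17, 41 for Kif18b and 34 for Kif18a.

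CTCF and BORIS were listed together at 10 genes (Kif14, Kif15, Kif19a, Kif1b, Kif21b, Kif23, Kif26a, Kif26b, Kifc1 and Kifc5b), CTCF without BORIS at 7 and neither at 19. The 12-base CTCF core CCANNAGNNGGC, searched on both strands of the 201 bp around each summit, was found for 8 of the 17 genes with a WT CTCF peak and for 4 of the 15 with a BORIS peak. It occurred in 39.1% of all WT CTCF windows, 31% of all WT BORIS windows, 51.2% of all CM CTCF windows and 1.57% of windows of the same length around all gene starts. It was found at none of the 5 genes with BORIS alone. Kif1b and Kif26b carry the core outside exons, at a CTCF peak that was still listed in CM, and are shown as kept sites. The WT CTCF summits lay 239 bp upstream of the nearest start for Kif1b and 1760 bp upstream for Kif26b. The core is in capitals, on the minus strand for Kif1b and the plus strand for Kif26b.
Kif1b, chr4:148681998-148682057: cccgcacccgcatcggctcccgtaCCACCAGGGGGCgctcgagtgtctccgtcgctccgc
Kif26b, chr1:180457384-180457443: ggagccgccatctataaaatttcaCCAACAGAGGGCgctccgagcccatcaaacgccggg
Kif1b had heights of 3400 for CTCF and 867 for BORIS in WT and 566 for CTCF in CM, and Kif26b had 603, 202 and 358.

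Kifc1 and Kifc5b are a pair of near-identical genes on chromosome 17 that encode minus-end-directed motors. Their upstream regions aligned over 300 columns with 265 identical (88.3%), and the summits of both CTCF peaks lie in a shared run of 29 bases, in capitals below. Kifc1 is shown on the plus strand and Kifc5b on the minus strand.
Kifc1, chr17:34027873-34027921: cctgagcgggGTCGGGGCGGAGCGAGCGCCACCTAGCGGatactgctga
Kifc5b, chr17:27053723-27053771: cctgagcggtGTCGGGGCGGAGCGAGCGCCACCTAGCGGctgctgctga
Reads of either gene may have been split between the copies, so the RNA and the peaks of this pair are uncertain as to which copy they come from.

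The levels of the kinesin genes in WT are given per kb of exon so that genes can be compared, and cilium, flagellum and microtubule end genes took most of the first places in each preparation. In WT RS, Kif2b, a kinesin-13 that depolymerizes microtubules, was first with 301 ± 13.7 CPM per kb (SD, n = 3). It was followed by Kif2a, another kinesin-13 (159 ± 18.3), Kif27, of the kinesin-4 group linked to motile cilia (146 ± 1.80), Kif3b, a motor subunit of kinesin-2 (117 ± 6.87), and Kif9, a kinesin of the flagellar axoneme (114 ± 9.16). The SD ranges of Kif2a and Kif27 overlapped, as did those of Kif3b and Kif9. In WT SC the order was Kif9 (96.0 ± 2.52 CPM per kb, n = 2), Kif3a, the partner of Kif3b in kinesin-2 (91.0 ± 5.27), Kif2a (90.03 ± 6.02), Kif3b (84.7 ± 0.794) and Kif20b, a kinesin-6 (50.4 ± 6.14), and each of the first 4 overlapped its neighbour in SD range. In WT whole testis it was Kif2b (346 ± 42.8), Kif27 (192 ± 37.5), Kif2c (150.9 ± 32.4), Kif17 (126 ± 13.3) and Kif9 (125 ± 7.87), and of these Kif2b was the one whose SD range met no neighbour's. Kif12 was at 0 in all RS and SC libraries and had 1 to 12 counts in whole testis, which was too few to test.

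**Figure D1:**
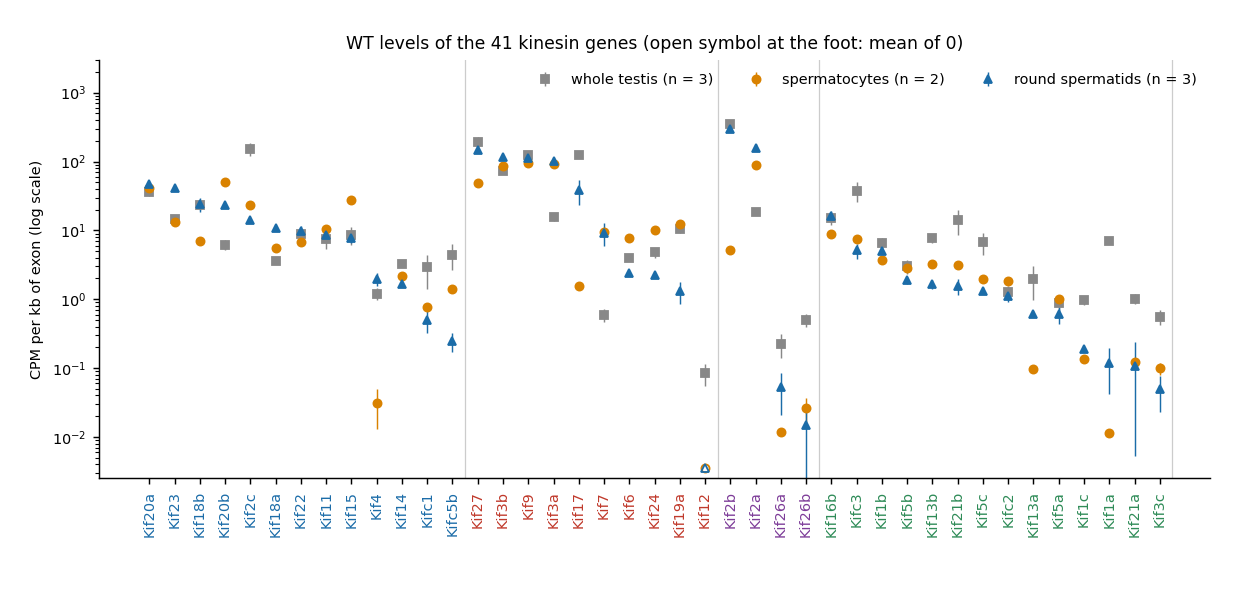
Mean level of each of the 41 kinesin genes in WT, in CPM per kb of exon on a log scale, with SD bars (cut short where they would reach 0), for whole testis, SC and RS. Names are coloured by role (blue, spindle and cytokinesis; red, cilium and flagellum; purple, microtubule end regulators; green, transport); Kif2b stands at 301 CPM per kb in RS and at 5.20 in SC, and Kif12 was at 0 in both.

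The question of the first comparison was how kinesin RNA differs between meiotic SC and haploid RS of WT. Of 40 kinesin genes tested 31 were called, 15 higher and 16 lower in RS, at an adjusted p under 0.05 (edgeR quasi-likelihood test, Benjamini-Hochberg), while 70% of all 16052 genes tested were called. The median log2 fold change was -0.13 over the kinesin genes and 0.02 over all genes. The count was 20 when all RS and SC groups shared a fit, which called 50.6% of all genes.

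Genes called in opposite directions sat side by side in each role group but the microtubule end regulators, where 3 were higher and 0 lower. Among the microtubule end regulators, Kif2b was at 12.5 and 11.4 CPM in the WT SC libraries and at 716, 655 and 702 CPM in WT RS. Every RS library was above every SC library by a wide margin, with a log2 fold change of 5.82 ± 0.12 (SE; adjusted p = 1.18e-07). Kif26a was also higher, at 0.368 ± 0.224 CPM in RS and 0.0824 ± 0.00862 in SC. That SC level is near the floor, below the mean of Kif1a (0.0951 CPM), whose few counts are given below. Kif2a was called higher (0.79 ± 0.13), but its log2 fold change was -0.11 after the trend on GC content was removed.

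Kif17, the homodimeric kinesin-2 of cilia and a partner of the spermatid coactivator ACT, led the cilium and flagellum genes. Its level was 6.71 and 7.72 CPM in WT SC and 259, 143 and 133 CPM in WT RS, a log2 fold change of 4.58 ± 0.34 (adjusted p = 1.55e-05). The groups lay far apart, although RS replicate 1 stood well above the other RS libraries. Kif27 rose by 1.55 ± 0.09 and Kif3b by 0.43 ± 0.08. In the same role group Kif19a, which shortens ciliary microtubules, was lower in RS (7.60, 4.25 and 4.38 CPM) than in SC (47.9 and 51.5 CPM), with a log2 fold change of -3.23 ± 0.25. Kif24, a kinesin-13 that acts at the centriole, fell from 78.4 and 84.8 to 18.2, 18.4 and 17.3 CPM (-2.22 ± 0.11), and Kif6 fell by 1.74 ± 0.11. Kif3a and Kif9 gave 0.11 ± 0.10 and 0.20 ± 0.09 and were not called.

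Of the 13 spindle, chromosome and cytokinesis genes 5 were higher and 6 lower in RS. Kif4, an X-linked chromokinesin, had 8 and 19 counts in the WT SC libraries (0.101 and 0.242 CPM) and 1174, 464 and 462 counts in WT RS (13.5, 9.92 and 9.03 CPM), a log2 fold change of 5.93 ± 0.39. The genome also holds a Kif4 pseudogene, so reads may have been shared with it. Kif23, the motor of the centralspindlin complex (1.61 ± 0.10), Kif18b (1.71 ± 0.19) and Kif18a (0.93 ± 0.12), kinesin-8 motors of spindle microtubule ends, were higher as well. Kif15, a mitotic spindle motor (-1.86 ± 0.16), Kif20b, which acts in cytokinesis (-1.13 ± 0.10), Kif2c, the mitotic centromere-associated kinesin (-0.79 ± 0.10), and Kif11, the kinesin-5 of spindle poles (-0.31 ± 0.11), were lower. Kifc5b was lower by 2.52 ± 0.29, and its copy Kifc1 gave -0.67 ± 0.34 and was not called.

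The 14 transport genes split into 4 higher, 7 lower and 3 not called. Kif13a was higher by 2.62 ± 0.24 and Kif1a by 3.34 ± 0.67, although Kif1a had only 7 and 8 counts in SC. Kif16b, an endosomal motor, rose by 0.84 ± 0.14. Kif13b (-1.03 ± 0.16), Kif21b (-1.05 ± 0.21) and Kif5b, the ubiquitous kinesin-1 heavy chain (-0.61 ± 0.15), fell.

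**Figure D2:**
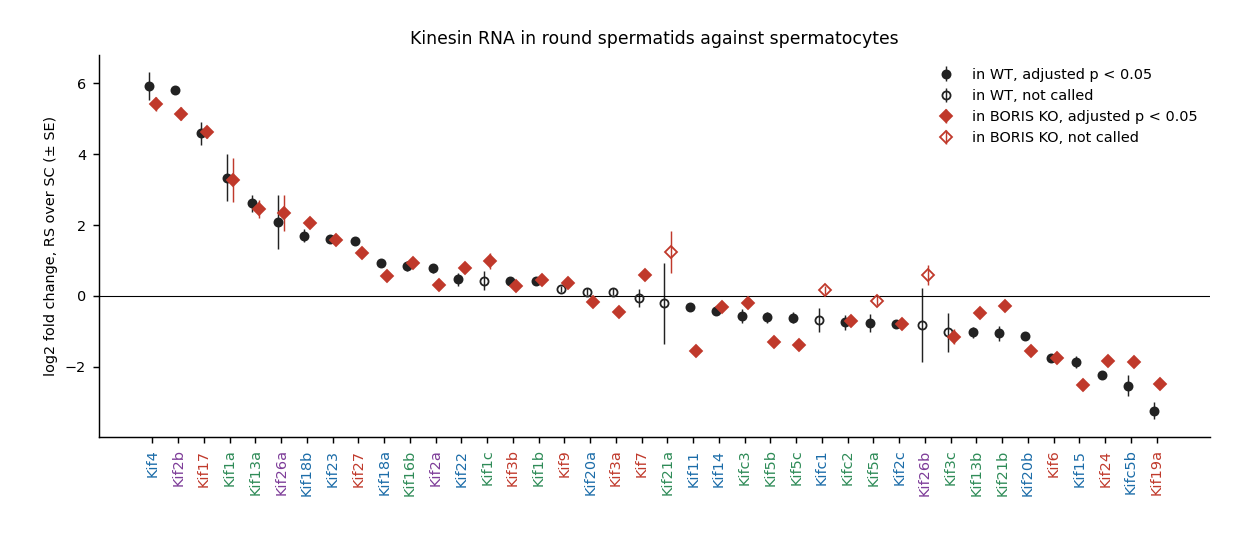
Log2 fold change of RS over SC (± SE) for the 40 kinesin genes tested, in WT (black circles) and BORIS KO (red diamonds), ordered by the WT value; filled symbols passed an adjusted p of 0.05. Kif4, Kif2b and Kif17 lie above 4 in both genotypes, and Kif19a, Kifc5b, Kif24, Kif15 and Kif6 lie below -1 in both.

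In BORIS KO 36 of 40 kinesin genes were called between RS and SC, 18 higher and 18 lower, against 83.3% of all genes tested. Of the genes called in WT or BORIS KO, 30 were called in both and all 30 had the same direction. How many of all genes did so was not counted, so this is no trait of the family as such. Kif2b rose by 5.14 ± 0.18 in BORIS KO, Kif17 by 4.63 ± 0.16 and Kif4 by 5.41 ± 0.20. Kif11 was lower in RS by 1.54 ± 0.16 in BORIS KO and by 0.31 ± 0.11 in WT. Kif23 (1.56 ± 0.08), Kif27 (1.22 ± 0.05), Kif18a (0.57 ± 0.08) and Kif3b (0.28 ± 0.06) were again higher, and Kif15 (-2.50 ± 0.15), Kif19a (-2.49 ± 0.06), Kif5b (-1.29 ± 0.15) and Kif2c (-0.80 ± 0.11) again lower. Kif3a (-0.46 ± 0.07) and Kif9 (0.36 ± 0.05) were among the genes called in BORIS KO and not in WT, and the difference between the genotypes was not tested. Kifc1 gave 0.18 ± 0.12 and, like Kif3a, had the opposite sign to WT. With all RS and SC groups in a single fit the number called was 23, against 50.5% of all genes.

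The genes that work with kinesins were set beside them. Of 25 partners 7 were higher and 15 lower in WT RS than in SC, with a median log2 fold change of -0.71. Of all genes tested 70% were called in this comparison. Kifap3, the third subunit of kinesin-2, rose by 2.77 ± 0.09. The chromosomal passenger genes Aurkb (-2.0 ± 0.18), Cdca8 (-1.94 ± 0.10) and Birc5 (-0.54 ± 0.12) and the spindle factor Tpx2 (-1.14 ± 0.10) fell. Another chromosomal passenger gene, Incenp (0.80 ± 0.15), rose, as did Cenpe (1.42 ± 0.13).

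The question of the remaining comparisons was what the loss of BORIS, of a Ctcf allele or of both did to kinesin RNA. In whole testis CM had the most calls. There 14 of 40 kinesin genes were called, 5 higher and 9 lower, against 25.2% of all 16378 genes tested. The median log2 fold change was -0.39 over the kinesin genes and 0.00 over all genes. In bulk tissue, fewer cells of a type and less RNA per cell cannot be told apart, and the Leydig, Sertoli and round spermatid markers given above moved with the same libraries. Their part in the kinesin changes was not tested.

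The lower genes in CM whole testis came from 4 role groups and held the 5 most abundant kinesins of WT testis. Kif2c was at 816, 639 and 534 CPM in WT and at 185, 304 and 222 CPM in CM (log2 fold change -1.49 ± 0.29, adjusted p = 0.0161). Kif2b was at 753, 906 and 723 CPM in WT and at 234, 436 and 354 CPM in CM (-1.23 ± 0.29, adjusted p = 0.0209). No CM library reached the lowest WT library for either gene. Kif27 fell from 1022, 866 and 687 to 328, 449 and 289 CPM (-1.28 ± 0.28). Kif17 fell from 633, 511 and 581 to 227, 303 and 214 CPM (-1.22 ± 0.25, adjusted p = 0.0166). These genes too showed no overlap between WT and CM. Kif9 (-0.76 ± 0.23), Kif18a (-0.92 ± 0.25), Kif18b (-0.79 ± 0.25), Kif21b (-1.06 ± 0.32) and Kif26b (-1.17 ± 0.34) completed the list, and Kif26b rested on a mean of 3.96 CPM in WT. All 13 spindle genes had a negative fold change, but 3 passed the test. Kif3a and Kif3b gave -0.51 ± 0.24 and -0.56 ± 0.24 and were not called, Kif11 and Kifc1 gave -0.22 ± 0.30 and -0.10 ± 0.38, and Kif23 gave -0.75 ± 0.27.

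All 5 higher genes were transport kinesins, motors that are known from somatic cells and neurons. Kif1c, a kinesin-3, was at 7.81, 6.03 and 6.58 CPM in WT and at 49.6, 16.04 and 31.2 CPM in CM (2.23 ± 0.40, adjusted p = 0.0156). Kif5b rose from 28.6, 19.9 and 19.0 to 52.0, 39.6 and 49.3 CPM (1.04 ± 0.25). Neither gene overlapped between WT and CM, and CM replicate 1 was the highest of its group for both. Kif21a (1.57 ± 0.32), Kif3c (1.67 ± 0.46) and Kif5a (1.48 ± 0.47) were also called. Kif3c and Kif5a averaged 3.86 ± 0.909 and 5.93 ± 1.47 CPM in WT, and CM replicate 1 was well above the next CM library for both (21.1 against 10.5 CPM, and 30.1 against 10.3 CPM).

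These calls depended on the libraries and the model. Without WT replicate 2, WT replicate 3 or CM replicate 3 no kinesin gene was called, and the share of all genes called fell to 0.066, 0.0178 and 0.0239%. Without WT replicate 1, 6 kinesin genes and 10.9% of all genes were called. In whole testis the same-numbered libraries deviated together, although no label states that they were prepared together. Replicate 1 also had the highest total count in every genotype. With the replicate number as a block 17 kinesin genes (42.5%) were called, 5 higher and 12 lower, against 43% of all genes. The added genes were Kif20a (-0.69 ± 0.23, adjusted p = 0.0283), Kif23 (-0.79 ± 0.23, 0.0160) and Kif2a (-0.74 ± 0.22, 0.0180), all lower.

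**Figure D3:**
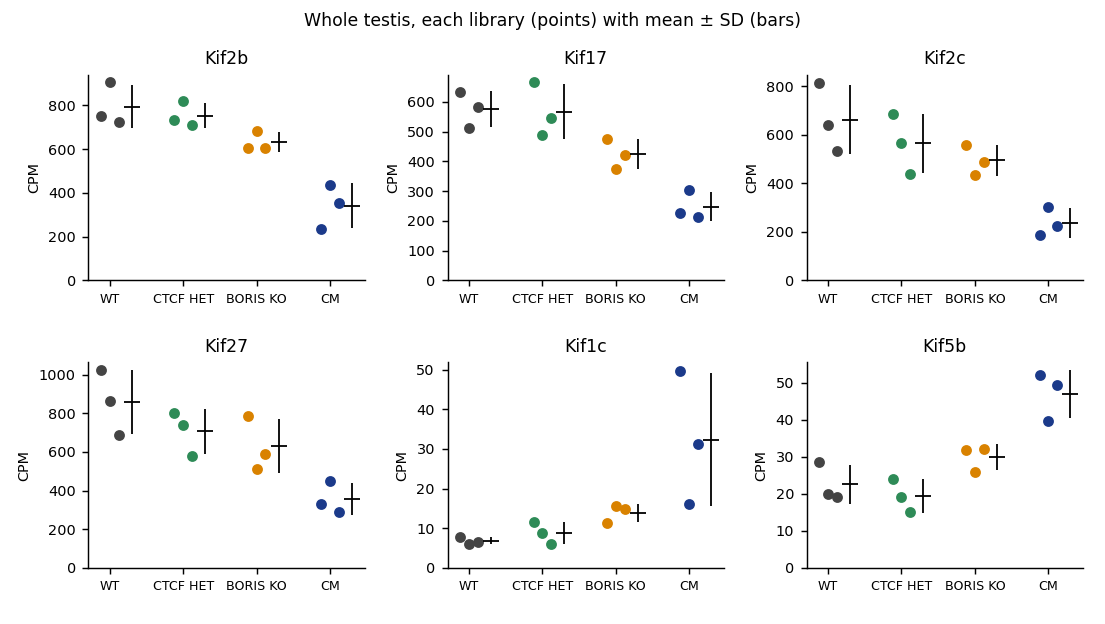
Level in CPM of 6 kinesin genes in each of the 12 whole testis libraries (points, by genotype) with the mean and SD of 3 libraries (bars); the axes start at 0. Kif2b, Kif17, Kif2c and Kif27 are lowest and Kif1c and Kif5b highest in CM, and BORIS KO lies between WT and CM in the mean of every gene shown.

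Neither single mutant had a kinesin gene called in whole testis by the main edgeR fit, which did not use the replicate number. In CTCF HET the count was 0 of 40 (background 0.00621%), with 0 at an unadjusted p under 0.05 (2.63% of all genes) and 0 by DESeq2 (0.0186%). Kif17 was at 667, 489 and 547 CPM and Kif2b at 733, 818 and 711 CPM, which overlapped WT. The other genes followed throughout lay between Kif18a (-0.46 ± 0.27) and Kif11 (0.04 ± 0.27), with Kif27 at -0.28 ± 0.19, Kif2c at -0.23 ± 0.20 and Kif5b at -0.21 ± 0.23. In BORIS KO the count was 0 of 40 (background 0.0551%), with 8 at an unadjusted p under 0.05 (16.6% of all genes) and 1 by DESeq2 (2.36%). With the replicate number as a block, 5 were called in BORIS KO, against 6.59% of all genes. Kif17 (-0.43 ± 0.10, adjusted p = 0.0404) and Kif2a (-0.48 ± 0.11, 0.0407) were lower, and Kif1c (1.01 ± 0.20, 0.0292), Kif21a (0.73 ± 0.19, 0.0468) and Kif5a (0.95 ± 0.24, 0.0440) were higher. Kif17 was at 475, 374 and 423 CPM in BORIS KO, below every WT library and above every CM library. Kif23 (-0.44 ± 0.15), Kif27 (-0.43 ± 0.20), Kif2c (-0.41 ± 0.18), Kif18a (-0.36 ± 0.16), Kif9 (-0.35 ± 0.14), Kif2b (-0.32 ± 0.16) and Kif5b (0.43 ± 0.19) were not called in either fit. Leydig markers were higher in the BORIS KO libraries than in WT, as given above, and their part was not tested.

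CM was also compared with BORIS KO, which differs by the Ctcf allele. By edgeR 0 of 40 kinesin genes were called (background 0.006%), with 12 at an unadjusted p under 0.05 (21.6% of all genes) and 3 by DESeq2 (7.21%). Kif2c gave -1.09 ± 0.28 and was called with the replicate block (-1.12 ± 0.28, adjusted p = 0.0420), a fit that called 7.36% of all genes. Kif2b gave -0.92 ± 0.29, Kif27 -0.85 ± 0.29, Kif17 -0.80 ± 0.26, Kif18a -0.56 ± 0.26 and Kif5b 0.62 ± 0.22. Without CM replicate 2, 4 kinesin genes and 7.46% of all genes were called. A departure of CM from the sum of both single mutants' log2 changes was called for 0 of 40 (background 0%), with 7 at an unadjusted p under 0.05 (9.97% of all genes) and 0 by DESeq2 (0.169%). Its estimates were -0.83 ± 0.35 for Kif2c, -0.81 ± 0.31 for Kif2b, -0.75 ± 0.29 for Kif17 and 0.86 ± 0.33 for Kif5b.

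**Figure D4:**
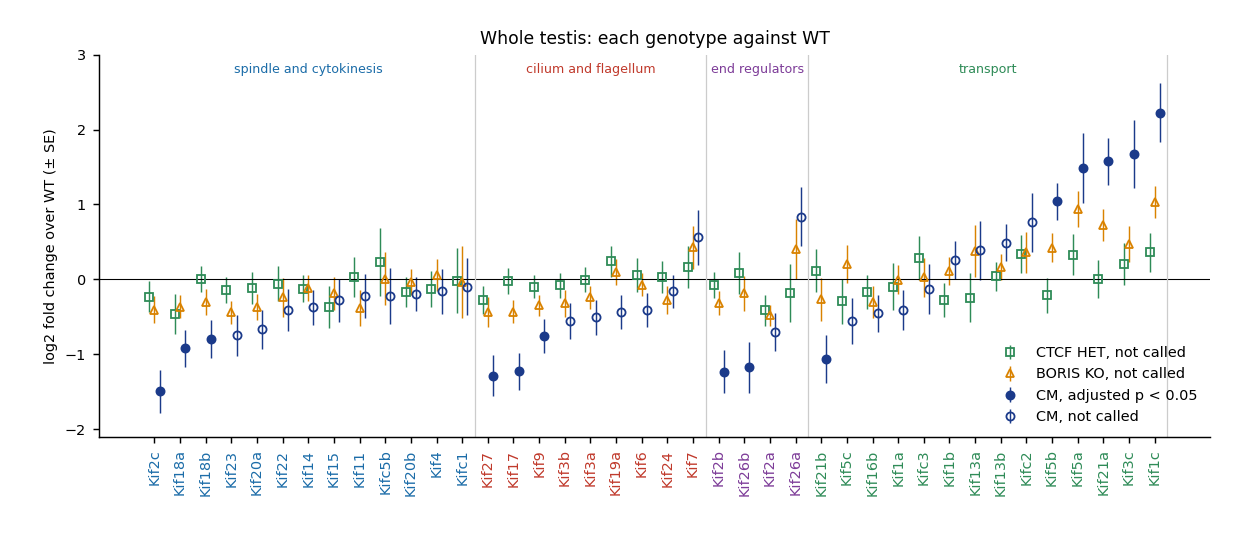
Log2 fold change over WT (± SE) in whole testis for the 40 kinesin genes tested, grouped by role and ordered by the CM value, for CTCF HET (green squares), BORIS KO (orange triangles) and CM (blue circles); filled symbols passed an adjusted p of 0.05. The 9 filled circles below 0 and the 5 above are the called genes of CM, the 5 all in the transport group.

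The called genes can be set beside the promoter peaks. Of the 9 kinesin genes lower in CM whole testis 6 had a WT BORIS peak at a start (Kif17, Kif18a, Kif18b and Kif2c without CTCF, Kif21b and Kif26b with CTCF), and of the 5 higher genes none did. Of the 15 genes with a BORIS peak 6 were lower and 0 higher, with a median log2 fold change of -0.43. Over all 3117 tested genes with a WT BORIS peak 8.21% were lower and 14.9% higher, with a median of 0.04, and over all 15604 tested genes matched to the annotation 8.77% were lower and 16.8% higher. Of the 18 tested genes with neither peak 3 were lower and 5 higher, with a median of -0.19, against 9.53% lower and 16.8% higher of the 8968 such genes in all. Kif2b, Kif27 and Kif9 fell with neither a CTCF nor a BORIS peak listed within 2 kb. Kif13b, the fifth gene with BORIS alone, gave 0.49 ± 0.25. Of all 586 tested genes with BORIS alone 8.87% were lower and 12.5% higher. In the purified cells of BORIS KO the counts for kinesin genes with a BORIS peak differed. In RS 7 were higher and 3 lower of 15 tested, against 35.1% and 25.6% of all such genes. In SC 7 were higher and 4 lower of 14 tested, against 35.9% and 27.9%. Kif17 and Kif18b were among the higher genes in both. The genes were few and the groups were formed with the results known, so no test was made.

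Of the 25 partner genes 2 were higher and 4 lower in CM whole testis. That count is near the share of all genes called, 25.2%, and carries no result about the partners as a set. Kifap3 (-1.14 ± 0.26), the kinesin light chain gene Klc3 of the sperm flagellum (-1.28 ± 0.27), the manchette linker Hook1 (-1.31 ± 0.28) and the kinesin-1 adaptor Mapk8ip1 (-1.20 ± 0.23) fell. Klc1, a light chain of somatic kinesin-1 (0.95 ± 0.24), and Trak2, a mitochondrial adaptor (1.41 ± 0.29), rose.

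In purified cells BORIS KO was the genotype with most calls, in the kinesin genes as in all genes. In RS 26 of 40 kinesin genes were called in BORIS KO, 13 higher and 13 lower, against 55.8% of all genes. In SC 25 of 38 were called, 12 higher and 13 lower, against 57.2%. The medians were 0.04 in RS and 0.06 in SC. The shares called are near those of all genes and carry no result about the family as such.

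In RS Kif20b was at 130, 132 and 133 CPM in WT and at 49.97, 53.1 and 53.4 CPM in BORIS KO (-1.37 ± 0.09, adjusted p = 6.96e-06). Kif3a fell from 564, 577 and 640 to 283, 255 and 279 CPM (-1.16 ± 0.09, 1.56e-05). Kif2a fell by 1.16 ± 0.10, Kif15 by 1.24 ± 0.18, Kif5b by 1.05 ± 0.17, Kif18a by 1.00 ± 0.10 and Kif27 by 0.71 ± 0.07. The groups of Kif20b and Kif3a lay apart with little spread within either. Kif11 (-0.72 ± 0.11), Kif23 (-0.55 ± 0.08), Kif20a (-0.50 ± 0.10), Kif2b (-0.46 ± 0.10) and Kif3b (-0.29 ± 0.09) were lower too. Among the higher genes Kifc1 was at 2.00, 2.12 and 1.02 CPM in WT and at 6.09, 5.38 and 5.22 CPM in BORIS KO (1.67 ± 0.27). Its copy Kifc5b rose by 1.20 ± 0.28. Kif1c (1.498 ± 0.25), Kif19a (1.24 ± 0.22), Kifc3 (1.13 ± 0.17), Kif21b (1.11 ± 0.18), Kif18b (0.95 ± 0.15), Kif13b (0.87 ± 0.15), Kif17 (0.73 ± 0.21), the chromokinesin Kif22 (0.70 ± 0.14) and Kif24 (0.52 ± 0.11) followed. Kif2c and Kif9 gave -0.06 ± 0.11 and 0.17 ± 0.09.

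In SC the changes of BORIS KO were smaller, with no called gene past a fold change of 2. Kif20b fell from 305 and 257 to 131, 144 and 150 CPM (-0.99 ± 0.08, adjusted p = 3.89e-06), Kif2a by 0.71 ± 0.07, Kif18a by 0.67 ± 0.09, Kif15 by 0.63 ± 0.07, Kif3a by 0.61 ± 0.07, Kif23 by 0.54 ± 0.10, Kif27 by 0.41 ± 0.06 and Kif5b by 0.39 ± 0.08. Kif1c (0.93 ± 0.18), Kifc1 (0.79 ± 0.14), Kifc3 (0.72 ± 0.08), Kif17 (0.66 ± 0.17), Kif18b (0.58 ± 0.08), Kifc5b (0.52 ± 0.12), Kifc2 (0.50 ± 0.11) and Kif19a (0.47 ± 0.06) rose. Of the 26 genes called in RS and the 25 called in SC, 22 were called in both, 11 higher and 10 lower in both, with Kif5c lower in RS (-0.45 ± 0.14) and higher in SC (0.30 ± 0.09). The same overlap over all genes was not counted, so these numbers carry no result about the family as such. Kif11 (0.49 ± 0.18), Kif2b (0.19 ± 0.14), Kif2c (-0.08 ± 0.07) and Kif9 (-0.03 ± 0.06) were not called in SC.

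The GC content of a kinesin gene's longest coding transcript ran with its change. Across the 40 kinesin genes in BORIS KO RS the Spearman correlation of log2 fold change with GC content was 0.845, against 0.722 across all genes, and in BORIS KO SC it was 0.771 across 38 genes, against 0.644. The genes of a comparison share their libraries and are not independent. Kif20b, Kif2a and Kif18a have 39.4, 38.6 and 38.3% GC, and Kif17, Kifc3 and Kif19a have 60.1, 59.9 and 60.6%. With a smooth trend on GC content removed from each library, 15 genes were called in RS (7 higher, 8 lower; 37.5%, against 37% of all genes) and 12 in SC (3 higher, 9 lower; 31.6%, against 41.4%). Kif20b, Kif15, Kif3a and Kifc1 were called in RS under every alternative tried. The change of Kif17 in RS became -0.36 and that of Kif18a 0.14 with the trend removed. Spermatocyte markers moved in the same libraries, with 5 of 7 lower in BORIS KO RS (460 to 473 CPM summed, against 1216 to 1652 in WT) and 6 of 7 lower in SC. Their part was not tested.

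**Figure D5:**
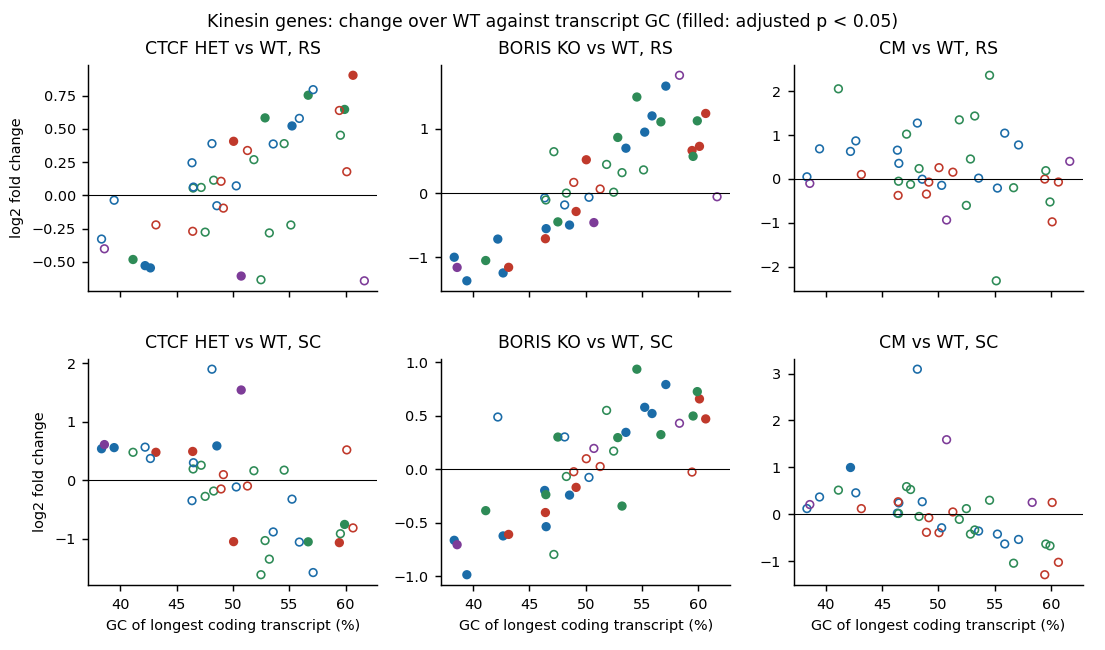
Log2 fold change over WT of each kinesin gene tested (points, coloured by role as for the WT levels) against the GC content in percent of its longest coding transcript, for the 3 genotypes in RS (top) and SC (bottom); the vertical scales differ between panels, and filled points passed an adjusted p of 0.05. The points climb from left to right in BORIS KO and CTCF HET RS and in BORIS KO SC, and descend in CTCF HET and CM SC.

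CTCF HET had fewer calls, and several genes that rose in one cell type had the opposite sign in the other. In RS 10 of 39 kinesin genes were called, 6 higher and 4 lower, against 22.3% of all genes, and in SC 11 of 37, 7 higher and 4 lower, against 15.5%. In RS Kif2b fell from 716, 655 and 702 to 458, 428 and 489 CPM (-0.61 ± 0.10, adjusted p = 0.00529), Kif11 by 0.53 ± 0.13, Kif15 by 0.54 ± 0.17 and Kif5b by 0.48 ± 0.15. In the same libraries 6 of 9 round spermatid markers were lower, with a summed level of 971 to 1009 CPM against 1346 to 1485 in WT, and the macrophage markers summed to 62.1 to 69.1 CPM against 85.5 to 97.9, and their part was not tested. Kif19a (0.90 ± 0.24), Kif21b (0.75 ± 0.18), Kifc3 (0.65 ± 0.17), Kif13b (0.58 ± 0.16), Kif18b (0.52 ± 0.15) and Kif24 (0.41 ± 0.11) rose. In SC Kif24 fell from 78.4 and 84.8 to 34.5, 36.4 and 48.3 CPM (-1.05 ± 0.15, adjusted p = 0.00809), as did Kif21b (-1.05 ± 0.27), Kif7, a regulator of Hedgehog signalling in cilia (-1.06 ± 0.23), and Kifc3 (-0.75 ± 0.17). Kif2a (0.61 ± 0.09), Kif20a (0.59 ± 0.11), Kif20b (0.56 ± 0.10), Kif18a (0.54 ± 0.14), Kif27 (0.49 ± 0.08), Kif3a (0.48 ± 0.11) and Kif2b (1.54 ± 0.42) rose. Kif2b was at 49.1, 37.5 and 17.2 CPM in CTCF HET SC against 12.5 and 11.4 in WT, and 4 of 9 round spermatid markers were higher in the same libraries, with a summed level of 61.0 to 94.2 CPM against 39.2 in WT. Their part was not tested. Kif17 gave 0.18 ± 0.23 in RS and 0.52 ± 0.32 in SC, and Kif9 gave 0.11 ± 0.09 and -0.15 ± 0.09.

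The correlation with GC content was 0.561 in CTCF HET RS and -0.651 in CTCF HET SC, and with its trend removed 6 and 3 kinesin genes were called, against 22.3% and 6.64% of all genes. The counts moved with single libraries, as did the shares of all genes called. In RS, 19 kinesin genes (42.3% of all genes) were called without WT replicate 1, 5 (12.5%) without CTCF HET replicate 3, and 1 (5.88 to 8.57%) without WT replicate 2, WT replicate 3, CTCF HET replicate 1 or CTCF HET replicate 2. In SC, 11 were called without WT replicate 1 (10.6% of all genes) and without CTCF HET replicate 3 (22.7%), 5 without WT replicate 2 (5.84%), 6 without CTCF HET replicate 1 (6.56%) and 0 without CTCF HET replicate 2, where 1 of all 13691 genes was called.

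In the libraries labelled CM the spread between replicates was wide. In RS edgeR called 0 of 39 kinesin genes (background 0.00654%), with 9 at an unadjusted p under 0.05 (20.5% of all genes) and 6 by DESeq2 (11.7%), and 3 were called without CM replicate 1 (5.67%). Kif5b was at 14.6, 123 and 28.9 CPM in CM RS against 12.4, 15.7 and 13.97 in WT (2.06 ± 0.73). Replicate 2 stood above the others for Kif5b, and also for Kif11 (92.5 CPM, against 34.6 and 56.1), Kif15 (105, against 37.4 and 53.1) and Kif4 (41.7, against 15.2 in the lowest). The spermatogonial markers summed to 285 CPM in the highest CM RS library, against a median of 40.9 in CM and 13.4 to 21.2 in WT. Kif2b was at 449, 273 and 330 CPM in CM RS, below every WT library, with a change of -0.94 ± 0.20, and the round spermatid markers summed to 531 to 816 CPM in the same libraries against 1346 to 1485 in WT. Their part was not tested. Kif17 was at 147, 50.6 and 66.6 CPM (-0.98 ± 0.41), and its groups overlapped. Kif27 (-0.38 ± 0.27), Kif9 (-0.35 ± 0.21), Kif2c (-0.15 ± 0.18) and Kif3a (0.10 ± 0.22) had intervals of 2 SE that held 0.

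In CM SC 1 of 38 kinesin genes was called (background 0.604%). Kif11 was at 97.4, 93.0 and 107 CPM against 51.0 and 48.8 in WT (1.02 ± 0.11, adjusted p = 0.0360), with no overlap. The call was lost without WT replicate 1 or 2 and without CM replicate 2 or 3, and without CM replicate 1, 20 kinesin genes and 38.9% of all genes were called. DESeq2 called 11, and 21.9% of all genes. Kif2b gave 1.59 ± 0.54, Kif5b 0.51 ± 0.19, Kif9 -0.39 ± 0.09 and Kif17 0.25 ± 0.28, none of them called. Beside Kif2b, the round spermatid markers summed to 38.1 to 118 CPM in CM SC (39.2 in WT) and the spermatocyte markers to 4833 to 7706 CPM (3502 and 4443 in WT), and their part was not tested. The correlation with GC content was -0.634, and with its trend removed 3 were called, against 3.19% of all genes.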

How the data were processed

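Per the labels and the methods, the authors mapped reads to mm9 with TopHat2 and Bowtie2 (whole testis) or STAR (RS, SC) and deposited raw counts per gene. The counting tool, annotation and strand setting are not given in the sources used here. The deposited CTCF and BORIS peaks carry a height signal of unstated normalization, and the deposited Pol2 and H3K4me3 peaks a MACS score. No per-sample column was left unmapped.

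The kinesin genes and all lists were chosen with earlier results of these data known. Named genes were those called (at most 10 per direction by p), the 5 highest in WT, 12 genes with known germ cell or division roles, and those with a BORIS peak.

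Counts of the compared groups were filtered with filterByExpr (minimum count 10, total 15), TMM-scaled and tested with edgeR 4.0.16 (R 4.3.3) by quasi-likelihood with Benjamini-Hochberg adjustment over all genes tested. SEs are the log2 fold change divided by the square root of F. CPM use TMM-scaled library sizes. Alternatives were DESeq2 1.42.0 and those of the closing section, and the GC offset was added after the data were seen. The tests were also run on simulated counts. The simulated libraries were independent, without a shared deviation of same-numbered libraries or a GC trend, so that run cannot judge the tests where these matter. Same-numbered whole testis libraries deviated together (18 of 18 pairs with a correlation over 0.1, mean 0.358). The labels do not say what such libraries shared. The main whole testis fits did not use the replicate number, and only the alternatives with it as a block did. Comparisons with WT share the WT libraries. Each preparation is a pool of 4 mice, so the p-values measure the spread between preparations.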

Additional observations from a re-analysis of the deposited data

Results flagged for a closer look

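Kinesin genes were listed here when every library of the compared genotype lay on one side of WT in one preparation and on the other side in another. Each value is a log2 fold change over WT, and for none of them was the difference between the preparations tested. How many of all genes met the same rule was not counted, so the list carries no result about the family as such. The rule is weaker than a call. In CTCF HET SC (3 libraries, against 2 of WT) 12 of 37 kinesin genes lay above WT and 15 below without overlap, while 11 were called. CTCF HET gave most of them between RS and SC. Kif13b (0.58 in RS and -1.03 in SC), Kif14 (0.25 and -0.35), Kif18b (0.52 and -0.32), Kif19a (0.90 and -0.81), Kif21b (0.75 and -1.05), Kif24 (0.41 and -1.05), Kifc1 (0.79 and -1.57) and Kifc3 (0.65 and -0.75) were higher than WT in RS and lower in SC. Kif11 (-0.53 and 0.57), Kif15 (-0.54 and 0.37), Kif18a (-0.33 and 0.54), Kif27 (-0.27 and 0.49), Kif2a (-0.40 and 0.61), Kif2b (-0.61 and 1.54), Kif3a (-0.22 and 0.48) and Kif5b (-0.48 and 0.48) were the other way round. Kif2a in CTCF HET also gave -0.41 in whole testis against 0.61 in SC. The mean Ctcf level was 41.5 CPM in CTCF HET SC against 32.9 in WT SC, so the SC genotype rests on the label. Across the kinesin genes, log2 fold change correlated with GC content at 0.561 in CTCF HET RS and -0.651 in CTCF HET SC. With the GC trend removed, 6 (main fit 10) and 3 (main fit 11) were called, and no CTCF HET call changed sign. The part of GC content in the opposite signs was not tested.

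In BORIS KO, Kif17 gave -0.43 in whole testis against 0.73 in RS and 0.66 in SC, although its RS value was -0.36 with the GC trend removed. Kif24 gave -0.27 in whole testis and 0.52 in RS, Kif5a 0.94 in whole testis and -0.35 in SC, Kif11 -0.72 in RS and 0.49 in SC, and Kif5c -0.45 in RS and 0.30 in SC.

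In CM, Kif2b gave -1.23 in whole testis and -0.94 in RS against 1.59 in SC. Kif23 gave -0.75 in whole testis against 0.36 in RS and 0.24 in SC, and Kif14 gave -0.37 in whole testis and 0.66 in RS. Kif13b gave 0.49 in whole testis and -0.42 in SC. Kif5a gave 1.48 in whole testis and 1.44 in RS against -0.34 in SC, and Kifc5b 1.05 in RS and -0.64 in SC. Ctcf was not lower than WT in the libraries labelled CM in RS and SC, so the genotype behind these values rests on the labels.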

How the results depend on the processing

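Of 154 calls of single kinesin genes, 32 held in every alternative. These were calls of RS against SC, apart from Kif15, Kif20b, Kif3a and Kifc1 in BORIS KO RS. No call in whole testis, CTCF HET, CM or BORIS KO SC held in all of them. In CM whole testis, CTCF HET SC and CM SC none could, since 0 of all genes passed an adjusted p under 0.001 with a fold change over 2. The direction of the 154 calls held in every alternative except the GC offset, which turned 11: in BORIS KO RS Kif11 (0.073), Kif17 (-0.36), Kif18a (0.14), Kif7 (-0.38) and Kifc2 (-0.50), in BORIS KO SC Kif14 (0.035), Kif19a (-0.21), Kif21b (-0.16), Kif5b (0.11) and Kifc2 (-0.13), and in WT RS against SC Kif2a (-0.11). The cause was not tested.

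The number of kinesin genes called moved by over 1.5 times as follows, and each count is followed by the percent of all tested genes called in the same fit. In whole testis BORIS KO (0) it was 1 (2.36%) with DESeq2, 5 (6.59%) with the replicate block and 14 (15.3%) with the replicate block and GC offset. In CM against BORIS KO (0) it was 3 (7.21%), 1 (7.36%) and 6 (12.5%), and 1 (2.21%) with all groups in one fit. CM against WT (14) had 0 (0%) at an adjusted p under 0.001 with a fold change over 2, the authors' thresholds. Here and below these were applied to the edgeR fit, in which none of the 16378 genes passed them in this comparison. The authors applied them to DESeq2 and report differentially expressed genes in CM whole testis. DESeq2 was not run at those thresholds here, so the results are not comparable. In CTCF HET RS (10) it was 0 (2.96%) with all groups in one fit, 6 (22.3%) with the GC offset, and 0 at a fold change over 2 (5.39%) and at the authors' thresholds (0.00656%). In the order all groups, GC offset, fold change over 2 and the authors' thresholds, BORIS KO RS (26) had 17 (31%), 15 (37%), 11 (26.9%) and 9 (15.5%), and BORIS KO SC (25) had 9 (14.5%), 12 (41.4%), 0 (8.43%) and 0 (4.77%). In CM RS (0) it was 6 (11.7%) with DESeq2 and 7 (17.9%) with all groups. In CTCF HET SC (11) it was 6 (7.4%) with no filter, 3 (6.64%) with the GC offset, 4 (4.89%) at a fold change over 2 and 0 (0%) at the authors' thresholds. In CM SC (1) it was 2 with RLE scaling (0.658%) or no filter (0.701%), 11 (21.9%) with DESeq2, 5 (13.1%) with all groups, 0 with the replicate block (0.461%) or at the authors' thresholds (0%) and 3 (3.19%) with the GC offset. With all groups, a fold change over 2 and the authors' thresholds, RS against SC had 20 (50.6%), 17 (52.3%) and 14 (35.7%) in WT (31) and 23 (50.5%), 19 (53.3%) and 17 (48%) in BORIS KO (36).

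Leaving out 1 library at a time gave 0 to 0 calls in CTCF HET and BORIS KO whole testis and for additivity, 0 to 15 in CM whole testis, 0 to 4 in CM against BORIS KO, 1 to 19 in CTCF HET RS, 23 to 28 in BORIS KO RS, 0 to 3 in CM RS, 0 to 11 in CTCF HET SC, 17 to 26 in BORIS KO SC, 0 to 20 in CM SC, and 21 to 38 and 34 to 36 for RS against SC in WT and BORIS KO. In RS and SC the libraries share only a number (4 of 18 and 1 of 15 pairs with a correlation over 0.1), and the block moved the BORIS KO counts to 27 and 24. WT CTCF peaks at starts were 11 in the upper 50% of heights (17 in all), and CM CTCF peaks 6 within 1 kb (11 within 2 kb).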
